A study of Mus musculus with 4 samples.

Results

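Tnfsf11 (ENSMUSG00000022015), Tnfrsf11a (ENSMUSG00000026321) and Tnfrsf11b (ENSMUSG00000063727) were followed across the cell classes of regenerating mouse digits. They are 3 of the 33696 genes listed and were taken by their symbols, and each had 1 entry. Tnfsf11 encodes RANKL, a ligand of the TNF family that is held on the cell surface or shed from it. Tnfrsf11a encodes its receptor RANK, through which cells of the myeloid lineage are driven to become osteoclasts, the cells that resorb bone. Tnfrsf11b encodes osteoprotegerin (OPG), a secreted decoy receptor that binds RANKL and keeps it from RANK, so that the balance of RANKL and OPG around bone sets how many osteoclasts form. Osteoblasts and osteocytes, T cells and innate lymphoid cells are known sources of RANKL, and cells of the osteoblast and cartilage lineages are known sources of OPG.

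The data are droplet-based single-cell RNA-Seq libraries (10x Genomics 3' chemistry) of digits from female C57BL/6 mice aged 6 to 8 weeks after amputation of the tip of the distal phalanx, and each library pooled 10 mice. Per the study's methods, digits were collected from the next phalanx outward, so that the cells also come from tissue proximal to the wound. The methods also list more digits as collected than as amputated. In the first pair, mice were given chow with SAR131675, an inhibitor of the lymphatic receptor VEGFR3, at 30 mg/kg of chow for 8 days, or control diet for 8 days. In the second pair, lymph nodes draining one hind limb were removed (LNR), and the digits of the opposite limb of operated mice served as sham per the study's methods, while the label calls them untreated. The day after amputation differs between the study's text and one of its legends and is not given here. There was 1 library per condition and each was its own batch in the labels, so that treatment, batch and library cannot be told apart within a pair, and no p-value was computed.

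The libraries held 19827 to 29076 cells after filtering, with a median of 10712 and 11316 UMIs (unique molecular identifiers, 1 for each captured transcript) per cell in the diet pair and of 5725 and 5851 in the LNR pair. Between libraries of a pair, 210 and 101 barcodes of kept cells were shared, and 0 to 2 across pairs. The pairs also differed in the software version that made the counts, and levels are therefore compared within a pair. Cells were clustered without the 3 genes and without the genes of their pathway, and clusters were named from marker genes as, for example, osteoblast-like. Levels are CPM, the UMIs of a gene summed over a class, divided by all UMIs of that class and multiplied by 1000000. A UMI is not scaled to gene length, so that a ratio of 2 genes reads as captured molecules. Whether both software versions counted the same reads of a gene was not tested, which limits ratios and class orders set side by side across pairs. Runx2 was at 2049 and 1971 CPM in osteoblast-like cells without a Tnfsf11 UMI in SAR131675 and control diet. In those of LNR and sham it was at 187 and 205 CPM. The cause of this difference between the pairs was not tested. Intervals in parentheses are exact 95% intervals and cover counting error only, and they treat UMIs as independent although UMIs of 1 cell are not.

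Of the 3 genes, the ligand was the scarcest. Tnfsf11 had 467 UMIs in the SAR131675 library, 278 in control diet, 501 in LNR and 289 in sham. They came from 210, 102, 156 and 142 cells. Single cells therefore weigh on its values, and the number of cells is given where few carried a value.

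For Tnfsf11, the osteoblast-like cells and the T/NK-like cells stood apart from the rest. The osteoblast-like cells were 1 cluster in each pair, led by Ibsp, Bglap, Bglap2 and Mmp13, with 178 and 110 cells in the diet pair and 421 and 340 in the LNR pair. Tnfsf11 was at 67.1 (55.0 to 81.0) CPM there in SAR131675, from 108 UMIs. It was at 92.1 (74.5 to 112.6) CPM in control diet, from 95 UMIs. The LNR level, from 441 UMIs, was 140.8 (127.9 to 154.5) CPM. The sham level, from 215 UMIs, was 87.6 (76.3 to 100.1) CPM. The LNR interval lay above that of sham, and the diet intervals overlapped. How many of all genes part in this way was not counted. Between LNR and sham, Tnfsf11 did not reach 2-fold there, beside 3.3% of all genes that did. The level depended on how the class was drawn. Without upper limits on genes and UMIs per cell it was 31.3 and 29.6 CPM in SAR131675 and control diet. With classes set by markers in each cell in place of clusters it was 12.1 and 14.5 CPM there, and 51.9 and 23.7 CPM in LNR and sham. In that alternative a cell entered a class with UMIs of at least 2 of its markers, T/NK-like cells apart, and could enter several classes. It is a looser rule than the clusters. The osteoblast-like cells then held 132, 108, 349 and 161 Tnfsf11 UMIs in SAR131675, control diet, LNR and sham.

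The T/NK-like cells, named from T cell and NK or innate lymphoid markers, were 109 and 79 cells in the diet pair and 182 and 145 in the LNR pair. Tnfsf11 was at 151.5 (121.0 to 187.3) CPM in SAR131675 and at 220.3 (177.6 to 270.1) CPM in control diet, from 85 and 92 UMIs. The LNR pair had 16 UMIs in each library, which gave 37.4 (21.4 to 60.8) CPM after LNR and 52.4 (29.9 to 85.1) CPM for sham. The order of the classes therefore differed between the pairs, with T/NK-like cells above osteoblast-like cells in both diet libraries and below them in LNR and sham. The T/NK-like class did not hold like clusters in both pairs, as described below. With classes set by markers, where T/NK-like cells are all those with a Cd3 UMI, the order turned in sham, at 28.7 against 23.7 CPM, and T/NK-like cells were at 63.9, 79.2 and 11.3 CPM in SAR131675, control diet and LNR. Leaving aside mixed and unnamed clusters, the next class among those with at least 50 cells in each library was at 2.35 (1.62 to 3.30) CPM in the joined diet libraries, the hair and nail matrix-like cells, and at 6.21 (2.02 to 14.5) CPM in the joined LNR and sham libraries, the Schwann-like cells with 5 UMIs. Neighbors further down that order overlapped in their intervals. Among the clusters left aside, those of mixed myeloid types in the diet pair were at 19.1 and 4.83 CPM, from 18 and 3 UMIs in 8 and 2 cells.

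**Figure D1:**
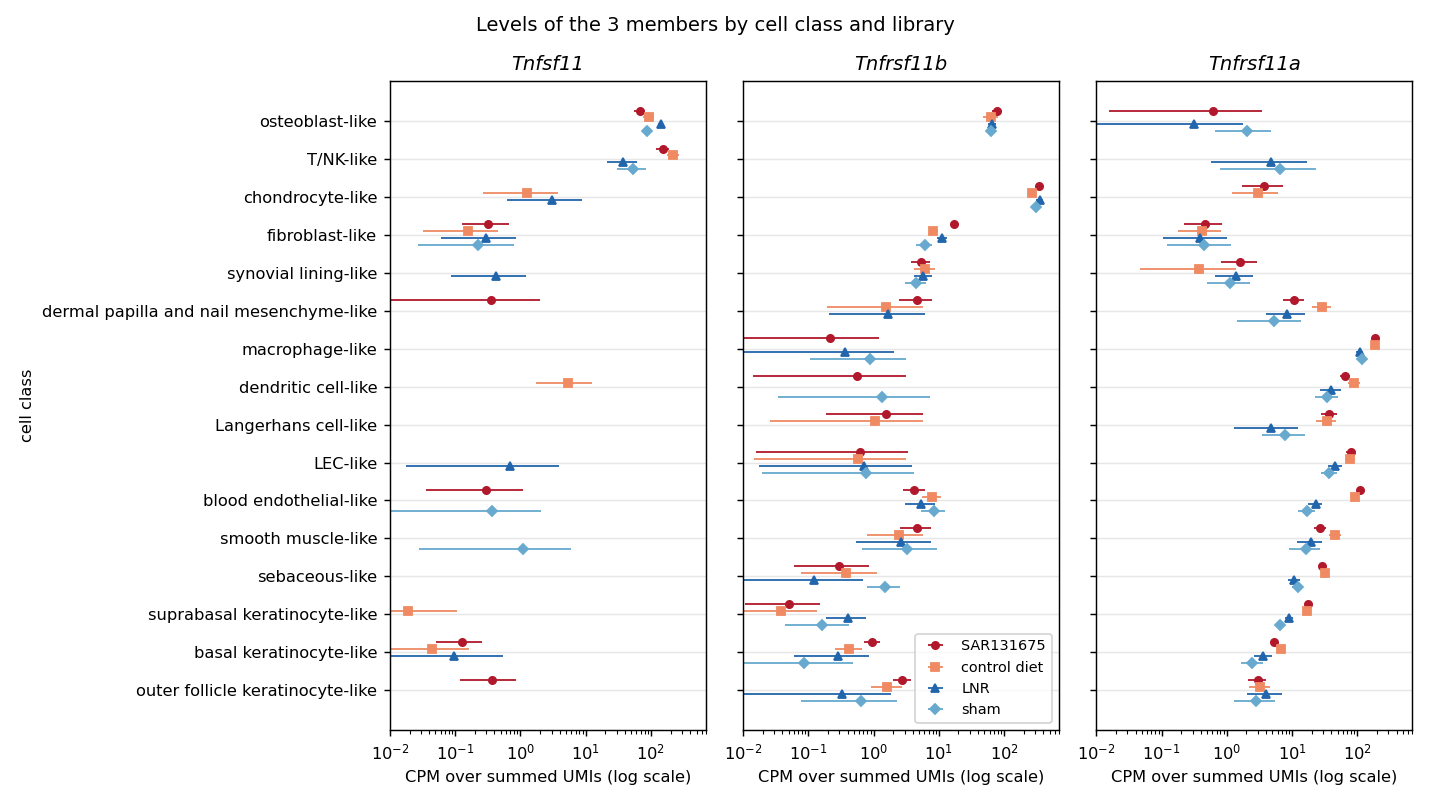
CPM of Tnfsf11, Tnfrsf11b and Tnfrsf11a (log axes) in 16 cell classes, with 1 point per library and bars for exact 95% Poisson intervals; classes without a UMI in a library have no point there. Tnfsf11 lies highest in osteoblast-like and T/NK-like cells, Tnfrsf11b in chondrocyte-like cells at 265 to 349 CPM, and Tnfrsf11a in macrophage-like cells at 109 to 189 CPM.

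As a share of cells, 23.6% (17.6 to 30.5) of osteoblast-like cells had a Tnfsf11 UMI in SAR131675, 27.3% (19.2 to 36.6) in control diet, 26.8% (22.7 to 31.4) in LNR and 25.3% (20.8 to 30.3) in sham. In T/NK-like cells the shares were 25.7% (17.8 to 34.9) and 30.4% (20.5 to 41.8) in the diet pair, and 6.59% (3.45 to 11.2) and 7.59% (3.85 to 13.2) in the LNR pair. T/NK-like cells had a median of 5086 and 5208 UMIs in the diet pair but of 2027 and 1852 in the LNR pair. With cells thinned to 1500 UMIs, T/NK-like shares were 15.2% and 19.7% in the diet pair and 5.67% and 4.95% in the LNR pair. Cells with fewer than 1500 UMIs were left out of all thinned values, and the T/NK-like medians of the LNR pair lay close above that depth. Macrophage-like cells, taken as a class that should lack the gene, had 0 Tnfsf11 UMIs in 545 to 778 cells per library at median depths of 2934 to 7142 UMIs, which allows shares of cells with a UMI of up to 0.386% to 0.550%. This limits detection, not expression, since a cell can carry the transcript without a captured UMI.

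Within the T/NK-like cells of the diet pair, Tnfsf11 was highest in a pair of clusters that carried Trdc, the constant segment of the delta chain of the gamma delta T cell receptor. A cluster of 37 and 33 cells led by Trdc, Scart1 and Il23r had Tnfsf11 at 196 CPM in SAR131675 and 338 CPM in control diet, from 44 and 65 UMIs. The whole T/NK-like class had 28 and 24 cells with a Tnfsf11 UMI in these libraries. A cluster of 26 and 19 cells led by Cd3g, Cd3e and Trat1, with 231 and 233 Trdc UMIs, had 244 and 208 CPM, from 31 and 23 UMIs. In it, 1 cell held 15 of the 31 UMIs and 1 cell held 9 of the 23. The third cluster, led by Ccl5 and Gzma, held most of the UMIs of Ctla4, a checkpoint gene of regulatory and activated T cells, and had Tnfsf11 at 47.7 and 34.8 CPM, from 10 and 4 UMIs. Il17a, the cytokine of type 17 lymphocytes, had 46 UMIs in the Il23r cluster of SAR131675 and 0 in that of control diet, whereas Il23r was at 216 and 201 UMIs there. In the LNR pair, Tnfsf11 was at 54.2 and 89.2 CPM in a cluster led by Ptprcap, Samsn1 and Cd69, from 11 and 12 UMIs, and at 52.0 and 47.0 CPM, from 4 UMIs each, in one led by Cd3g, Cd3e and Trdc. In the remaining cluster, led by Ccl5 and Gzma, with 60 and 40 cells and 86 and 57 UMIs of Cd3d, Tnfsf11 had 1 and 0 UMIs.

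A further cluster of the diet pair, with Skap1 and Ctla2a among its leading genes, was left without a name because none of its 20 leading genes was a marker. It held 287 and 225 UMIs of Gata3 and 239 and 108 of Icos, genes of type 2 innate lymphoid and helper T cells, with 0 and 3 UMIs each of Cd3d and Cd3e but 40 and 25 of Cd3g. Its Tnfsf11 was at 47.2 CPM in SAR131675 and 60.7 CPM in control diet, from 18 UMIs each. Counting it with the T/NK-like cells, as happened when 50 leading genes were searched, gave 109 and 154 CPM for that class, and 22.1% and 39.6% of the Tnfsf11 UMIs of SAR131675 and control diet. In the LNR pair, the Ptprcap cluster, 88 and 64 cells with 92 and 48 UMIs of Gata3, 44 and 32 of Icos and 35 and 40 of Cd3d, was within the T/NK-like cells. The class was thus not made up alike in both pairs.

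The share of a library's Tnfsf11 that came from T/NK-like cells was lower in the libraries of the LNR pair than in those of the diet pair. Osteoblast-like cells were 1.64% of sham and 2.12% of LNR cells but held 74.4% (69.0 to 79.3) and 88.0% (84.9 to 90.7) of the Tnfsf11 UMIs. T/NK-like cells held 5.54% (3.20 to 8.84) and 3.19% (1.84 to 5.13) there. In control diet, osteoblast-like cells held 34.2% (28.6 to 40.1) and T/NK-like cells 33.1% (27.6 to 39.0). In SAR131675 the values were 23.1% (19.4 to 27.2) and 18.2% (14.8 to 22.0). With cells thinned to 1500 UMIs and shallower cells left out, the T/NK-like shares were higher, at 31.9% (21.4 to 44.0) in SAR131675, 42.6% (28.3 to 57.8) in control diet, 10.6% (4.96 to 19.1) in LNR and 13.0% (4.94 to 26.3) in sham. Cells with any UMI of Cd3d, Cd3e or Cd3g, wherever they clustered, held 25.9% in SAR131675, 36.0% in control diet, 2.79% in LNR and 11.1% in sham. The shares follow the number of cells captured as well as their level, and osteoblast-like cells were 0.612% and 0.458% of the cells of SAR131675 and control diet. Cells without a Cd3 UMI that lay outside the T/NK-like cells held 73.9%, 62.6%, 96.2% and 88.2% of Tnfsf11 in SAR131675, control diet, LNR and sham.

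**Figure D2:**
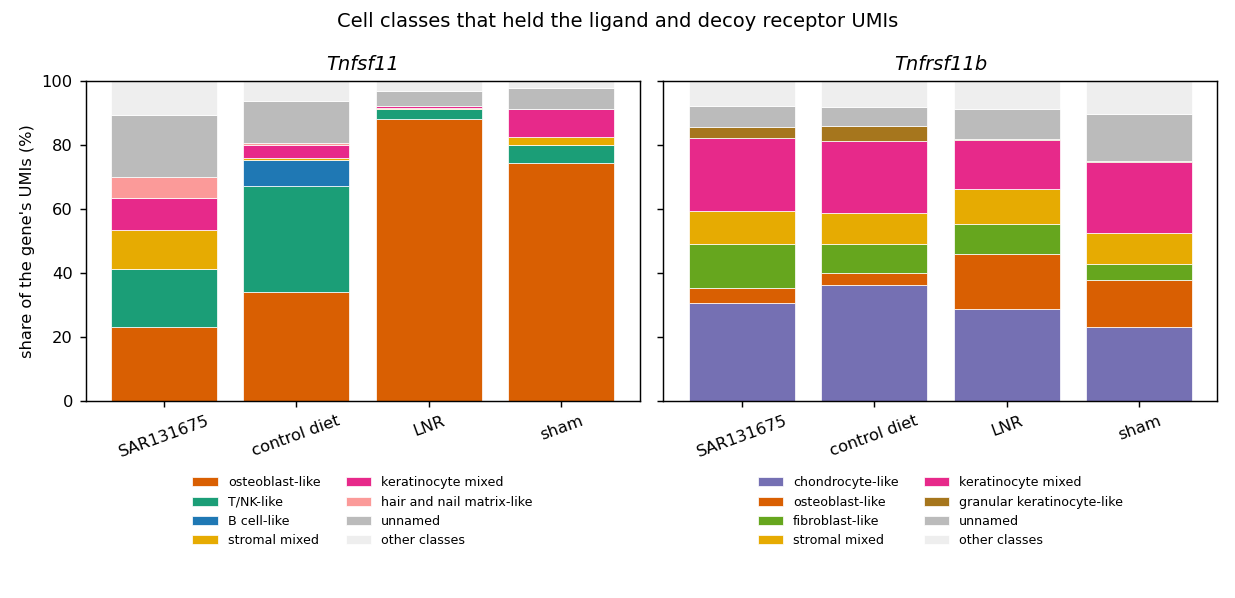
Share of each library's Tnfsf11 UMIs (left) and Tnfrsf11b UMIs (right) held by each cell class, in percent, stacked to 100 for the 4 libraries. Osteoblast-like cells hold 88.0% of Tnfsf11 in LNR and 74.4% in sham but 23.1% and 34.2% in the diet pair, while chondrocyte-like cells hold 23.1% to 36.2% of Tnfrsf11b, with 30.5% in SAR131675 and 36.2% in control diet that were 13.9% and 23.1% at the finer resolution.

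Part of the remaining ligand lay in very few cells. In SAR131675, 1 cell of a stromal cluster led by Coch and Tnmd held 46 Tnfsf11 UMIs, 9.85% of the library, and its cluster had 55 UMIs in 3 cells against 0 in control diet. In control diet, 1 B cell-like cell held 22 UMIs, 7.91% of the library, and the B cell-like cells of the other libraries had 0. A value from 1 cell has no spread behind it and no level of its class was drawn from it, although it enters the profiles of classes compared at the end.

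A wider source was a mixed keratinocyte cluster of the diet pair led by Fam13a and Lgr5, the latter a stem cell gene of the hair follicle. It held 34 Tnfsf11 UMIs in 26 cells of SAR131675 (5.52 CPM) and 6 UMIs in 5 cells of control diet (1.80 CPM). An unnamed cluster led by Ccer2, Cadm2 and Csmd1, with the melanocyte gene Dct among its leading genes, held 35 UMIs in 12 cells and 6 in 4 cells. In the LNR pair, 14 UMIs in 13 cells came from a hair and nail keratin cluster that held 395 sham but 8 LNR cells. Another 14 LNR and 9 sham UMIs came from an unnamed cluster of 41 and 50 cells that carried both the mast cell genes Cma1 and Mcpt4 and the osteoblast genes Ibsp and Mmp13.

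Tnfrsf11b, the decoy receptor, had another order of classes. It was highest in chondrocyte-like cells, led by Cytl1, Ecrg4 and Col10a1, at 340.2 (317 to 364) CPM in SAR131675 and 265 (245 to 287) CPM in control diet, from 814 and 620 UMIs. The LNR pair, with 344 and 248 UMIs, had 349 (313 to 388) and 309 (271 to 350) CPM. Osteoblast-like cells came next, at 78.9 (65.8 to 93.9) and 62.1 (47.8 to 79.2) CPM in the diet pair and at 65.4 (56.8 to 75.0) and 64.0 (54.3 to 74.8) CPM in the LNR pair. Without upper limits on genes and UMIs, the osteoblast-like level was 141 and 100.3 CPM in the diet pair, and the chondrocyte-like level of sham was 201.5 CPM when markers set the classes. The osteoblast-like values first given overlapped within each pair, and 1 cell held 40.2% of the UMIs in SAR131675.

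Chondrocyte-like cells with a Tnfrsf11b UMI were 43.8% and 37.3% in the diet pair and 56.7% and 55.2% in the LNR pair. Thinned to 1500 UMIs they were 22.6%, 15.1%, 31.9% and 30.6% in SAR131675, control diet, LNR and sham. Macrophage-like cells had 0 to 2 Tnfrsf11b UMIs per library and T/NK-like cells 0 in each. The 0 of 79 to 182 T/NK-like cells allows shares of cells with a UMI of up to 1.65% to 3.80%, and cells that express the gene below detection are not covered by this limit.

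In the diet pair, the chondrocyte-like cells joined a pair of populations that separated at the finer resolution. Cells led by Cytl1, Col10a1 and Acan, a cartilage proteoglycan, were 112 and 102, with Tnfrsf11b at 361 (325 to 400) CPM in SAR131675 and 409 (369 to 451) CPM in control diet. Cells led by Angptl7, Chad and Spp1, which were named tenocyte-like there, were 160 and 185, with 324 (295 to 356) and 164 (143 to 187) CPM. SAR131675 was thus the higher only in the second population, where Tnfsf11 had 0 and 2 UMIs. Without upper limits on genes and UMIs per cell, 159 of its 160 cells of SAR131675 and all 185 of control diet clustered as osteoblast-like cells.

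Outside the skeleton, Tnfrsf11b was spread over clusters of mixed keratinocyte types and fibroblasts. Keratinocyte clusters with Grem1 and Lhx2 among their leading genes, the latter a transcription factor of follicle stem cells, were at 32.5 and 33.3 CPM and at 36.7 and 48.7 CPM in SAR131675 and control diet, and at 38.5 and 47.1 CPM in LNR and sham. In the LNR pair such a cluster held 115 and 130 UMIs in 89 and 100 cells. A small granular keratinocyte-like cluster of the diet pair, led by Klk10 and Sprr1a, was at 110 and 63.1 CPM, from 84 and 44 UMIs in 12 and 9 cells. Basal and suprabasal keratinocyte-like cells were at 0.0381 to 0.949 CPM, and LEC-like cells had 1 UMI in each library.

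Among fibroblast-like cells, Tnfrsf11b was highest in clusters led by Myoc that also carried Pi16, a gene of adventitial fibroblasts. It was at 31.2 CPM in SAR131675 and 13.5 CPM in control diet, from 277 and 107 UMIs in 161 and 87 cells. The like cluster of the LNR pair had 19.4 CPM after LNR against 10.1 CPM, from 89 and 40 UMIs in 71 and 33 cells. In both pairs the treated library was the higher.

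The balance of ligand and decoy receptor differed between classes. Over all kept cells, Tnfrsf11b outnumbered Tnfsf11, with log2 ratios of Tnfsf11 to Tnfrsf11b UMIs of -2.52 (-2.66 to -2.37) in SAR131675, -2.62 (-2.81 to -2.44) in control diet, -1.26 (-1.41 to -1.11) in LNR and -1.89 (-2.08 to -1.70) in sham. T/NK-like cells stood at one end, with 85, 92, 16 and 16 Tnfsf11 UMIs in these libraries and 0 Tnfrsf11b UMIs in each. Chondrocyte-like cells stood at the other, with 0, 3, 3 and 0 Tnfsf11 UMIs beside 814, 620, 344 and 248 of Tnfrsf11b. With classes set by markers, chondrocyte-like cells had 7, 3, 38 and 2 Tnfsf11 UMIs, beside 679, 544, 347 and 291 of Tnfrsf11b. Their Tnfsf11 level in LNR was then 27.5 CPM, above the 11.3 CPM of T/NK-like cells. T/NK-like cells had 3, 1, 1 and 1 Tnfrsf11b UMIs by that rule.

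Osteoblast-like cells lay between them, with both genes present. Their log2 ratio was -0.23 (-0.62 to 0.15) in SAR131675, 0.57 (0.10 to 1.05) in control diet, 1.11 (0.86 to 1.35) in LNR and 0.45 (0.15 to 0.76) in sham. Ligand UMIs outnumbered decoy receptor UMIs in 3 of the 4 libraries, by 1.48-fold, 2.15-fold and 1.37-fold in control diet, LNR and sham. The SAR131675 ratio moved to 0.38 without its top cell of each gene. When cells with at least 1500 UMIs were thinned to that number, which weighs them equally and leaves out shallower cells, the ratios were 0.16, 0.35, 0.18 and -0.39 in SAR131675, control diet, LNR and sham, with intervals that included 0. With classes set by markers in each cell in place of clusters they were -2.44, -2.18, -0.19 and -0.88. Without the upper limits, when the Angptl7 cells joined the class, the diet ratios were -2.17 and -1.76 while those of LNR and sham were 1.30 and 0.61. The excess of ligand over decoy receptor UMIs therefore depended on how the class was drawn, most of all in the diet pair. It was also smaller after thinning in control diet and LNR and turned in sham, from 11 to 69 UMIs of each gene there, and the cause was not tested.

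**Figure D3:**
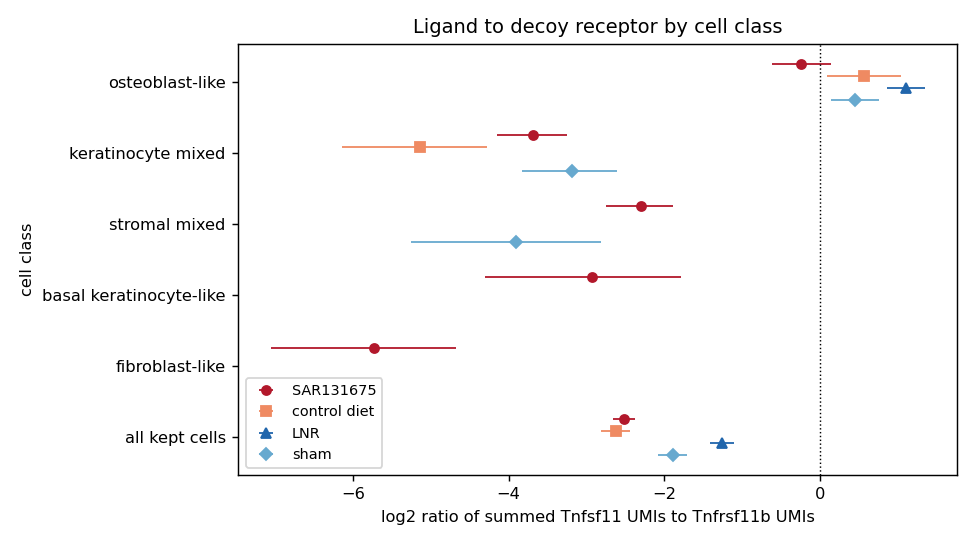
Log2 ratio of summed Tnfsf11 UMIs to Tnfrsf11b UMIs in 5 cell classes and in all kept cells, 1 point per library with its exact conditional 95% interval; values with 3 or fewer UMIs of a gene are left out, and the dotted line marks equal numbers. Osteoblast-like cells lie at -0.23 to 1.11, above every other class drawn and above all kept cells at -2.62 to -1.26. The 5 classes were a choice. Not drawn are T/NK-like cells, with 0 Tnfrsf11b UMIs, and clusters of mixed myeloid types, at 1.58 in SAR131675 from 18 against 6 UMIs and with 3 against 6 in control diet.

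In the other classes with many UMIs of either gene the decoy receptor mostly prevailed. Fibroblast-like cells had 7, 3, 3 and 2 Tnfsf11 UMIs beside 371, 156, 115 and 54 of Tnfrsf11b in SAR131675, control diet, LNR and sham. In SAR131675 their log2 ratio was -5.73 (-7.05 to -4.67). Clusters that mixed keratinocyte types had ratios of -3.68 (-4.14 to -3.25) in SAR131675, -5.13 (-6.15 to -4.28) in control diet and -3.19 (-3.83 to -2.60) in sham, and 3 Tnfsf11 against 185 Tnfrsf11b UMIs in LNR. The exceptions with more than 5 Tnfsf11 UMIs were the B cell-like cells of control diet, with the 22 UMIs of 1 cell against 0, and groups of SAR131675, where hair and nail matrix-like cells had 31 Tnfsf11 against 2 Tnfrsf11b UMIs and clusters of mixed myeloid types 18 against 6, while control diet had 2 against 3 and 3 against 6 there.

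Within the osteoblast-like cells, few cells had UMIs of both ligand and decoy receptor. Tnfrsf11b was found in few of these cells at all, 34 of 178 in SAR131675 and 23 of 110 in control diet. It was found in 72 of 421 in LNR and 55 of 340 in sham. Of the cells with a Tnfsf11 UMI, 6 of 42 in SAR131675, 1 of 30 in control diet, 13 of 113 in LNR and 12 of 86 in sham also had a Tnfrsf11b UMI. These are 14.3% (5.43 to 28.5), 3.33% (0.0844 to 17.2), 11.5% (6.27 to 18.9) and 14.0% (7.42 to 23.1). Among the cells without Tnfsf11 the shares were 20.6% (14.1 to 28.4), 27.5% (18.1 to 38.6), 19.2% (14.9 to 24.0) and 16.9% (12.5 to 22.1). The share was lower beside Tnfsf11 in every library, and the intervals overlapped in SAR131675, LNR and sham. Cells with Tnfsf11 were also deeper, with medians of 10070 to 11629 UMIs against 4728 to 8334. Whether the genes exclude each other was not tested.

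The cells with a Tnfsf11 UMI had less Bglap and Bglap2, genes of late osteoblasts. Bglap, which encodes osteocalcin of mature osteoblasts, was at 667 against 2958 CPM in SAR131675, at 886 against 2032 CPM in control diet, at 219 against 2604 CPM in LNR and at 333 against 3789 CPM in sham. These are log2 ratios of -2.15, -1.20, -3.57 and -3.51. Bglap2, its neighboring paralog, had ratios of -1.28, -0.55, -2.65 and -2.77, and reads of these near-identical genes may have been split between them. Both genes were lower in the cells with Tnfsf11 in all 4 libraries.

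Dmp1, a matrix gene of osteocytes, was also lower beside Tnfsf11, with 11 of 160 UMIs in SAR131675, 1 of 60 in control diet, 2 of 25 in LNR and 0 of 36 in sham. In the cells with a Tnfrsf11b UMI, Dmp1 was higher in every library, with log2 ratios of 1.71, 3.04, 3.59 and 2.43 in that order. It was found in 10 to 20 cells per library, and 1 cell held 70 of the 160 UMIs of SAR131675. Phex, an endopeptidase gene of osteoblasts and osteocytes, had log2 ratios of -1.12, -0.89, -0.14 and -0.14 beside Tnfsf11, from 5 to 12 UMIs there. Runx2, Sp7, Alpl, Col1a1, Ibsp and Spp1 had no common direction over the 4 libraries beside either gene.

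Since cells with Tnfsf11 were deeper, the comparison was repeated in osteoblast-like cells with at least 5000 UMIs, a choice made after the depths had been seen. This did not match the depths. Cells with Tnfsf11 had medians of 12542 against 9394 UMIs in SAR131675 and 11433 against 8977 in control diet. In LNR they had 13448 against 7117, and in sham 12977 against 7452. Bglap then had log2 ratios of -2.17, -1.22, -4.20 and -4.13 in SAR131675, control diet, LNR and sham, and Bglap2 of -1.35, -0.53, -2.80 and -3.46. Dmp1 was left with 2 UMIs in LNR, so that its value there rests on shallower cells, and Phex was left with 2 against 1 UMIs in LNR and 4 against 4 in sham, too few for a direction. Beside Tnfrsf11b, Bglap had ratios of 0.31, 1.34, 0.67 and -2.29, with sham in the opposite direction.

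**Figure D4:**
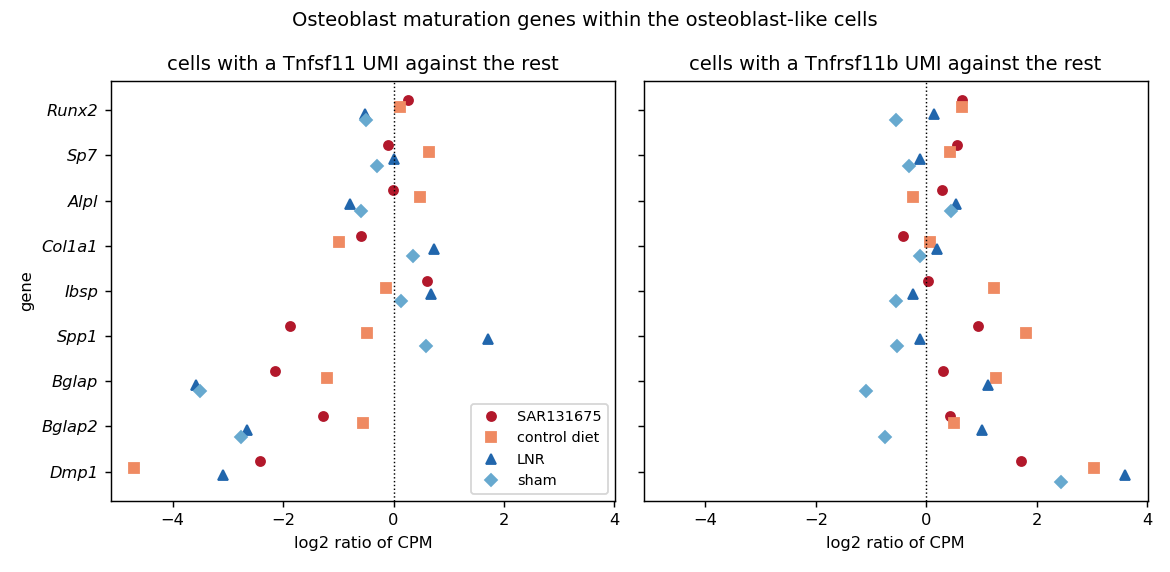
Log2 ratio of CPM of 9 osteoblast genes between osteoblast-like cells with a Tnfsf11 UMI (left) or a Tnfrsf11b UMI (right) and the remaining osteoblast-like cells, 1 point per library; Dmp1 of sham has no point on the left because it had 0 UMIs beside Tnfsf11. Bglap and Bglap2 lie left of 0 beside Tnfsf11 in all 4 libraries, from -3.57 to -0.55, and Dmp1 lies right of 0 beside Tnfrsf11b, from 1.71 to 3.59.

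Tnfrsf11a, the receptor, was highest in macrophage-like cells, at 189 (176 to 201) CPM in SAR131675, 189 (175 to 203) CPM in control diet, 109 (97.2 to 123) CPM after LNR and 118 (104 to 133) CPM for sham. It was at 111, 120, 53.6 and 40.2 CPM in that order with classes set by markers. A UMI was found in 62.5% and 63.1% of these cells in the diet pair and in 28.3% and 27.6% in the LNR pair, and in 25.4%, 24.8%, 14.7% and 14.6% after thinning. Fibroblast-like cells, taken as background, were at 0.390 to 0.456 CPM with 0.166% to 0.435% of cells. Clusters led by Vsig4, a complement receptor of resident macrophages, had 251 and 272 CPM in the diet pair and 132 and 141 CPM in the LNR pair, the highest of the macrophage-like clusters apart from one of 8 cells in sham, at 161 CPM.

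Endothelium also carried the receptor. Blood endothelial-like cells were at 109.8 (102 to 118) and 93.3 (84.8 to 102) CPM in the diet pair, where a cluster led by the leukocyte adhesion genes Selp and Sele was at 119.6 and 101.9 CPM. They were at 22.9 (17.6 to 29.2) and 16.8 (12.3 to 22.4) CPM in the LNR pair. LEC-like cells, of lymphatic endothelium, were at 80.4 and 76.6 CPM in the diet pair and at 45.6 and 37.1 CPM in the LNR pair. Dendritic cell-like cells were at 65.5 and 89.7 CPM and at 39.6 and 34.7 CPM, and overlapped LEC-like cells in both pairs.

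Among the named epithelial classes, suprabasal keratinocyte-like cells held the most receptor UMIs, 1048 and 893 in the diet pair and 200 and 162 in the LNR pair, at 17.8, 17.0, 9.05 and 6.63 CPM in SAR131675, control diet, LNR and sham. Sebaceous-like cells were at 28.6, 32.4, 10.8 and 12.3 CPM. Osteoblast-like cells had 1, 0, 1 and 5 Tnfrsf11a UMIs, and T/NK-like cells 0, 0, 2 and 2. The unnamed diet cluster with Gata3 and Icos, which joined the T/NK-like cells when 50 leading genes were searched, had 13 and 14 Tnfrsf11a UMIs, at 34.1 and 47.2 CPM.

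Osteoclasts, the cells in which RANK is best known, formed no class. Cells with at least 4 of 7 osteoclast markers were 5, 3, 4 and 10 in SAR131675, control diet, LNR and sham, and held 7, 5, 2 and 3 Tnfrsf11a UMIs. These numbers are too small for a comparison between the libraries.

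Between paired libraries, a gene was counted as changed at 2-fold or more in either direction with at least 20 UMIs in both libraries together. In osteoblast-like cells, neither Tnfsf11 nor Tnfrsf11b passed this in either pair, beside 4.78% of all genes in the diet pair and 3.3% in the LNR pair. The log2 ratio of Tnfsf11 was 0.68 (0.45 to 0.93) for LNR against sham and -0.46 (-0.87 to -0.04) for SAR131675 against control diet. That of Tnfrsf11b was 0.03 (-0.27 to 0.34) for LNR against sham and 0.35 (-0.10 to 0.80) for SAR131675 against control diet. The intervals take UMIs of 1 cell as independent, and the spread between mice is not known. Without the top cell of each library the Tnfsf11 ratio was 0.78 (0.53 to 1.04) for LNR against sham, and -0.35 (-0.79 to 0.093) in the diet pair, an interval that included 0. That of Tnfrsf11b was 0.13 (-0.20 to 0.46) and, with its direction turned, -0.10 (-0.63 to 0.44) in the diet pair. The diet value of Tnfsf11 was 0.077 (-0.27 to 0.43) without the upper limits on genes and UMIs. With classes set by markers, Tnfsf11 did pass for LNR against sham, at a log2 ratio of 1.13 (0.86 to 1.41), beside 5.18% of genes.

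In T/NK-like cells, Tnfsf11 did not pass in either pair, beside 6.47% of genes in the diet pair and 6.53% in the LNR pair. Its log2 ratio was -0.54 (-0.98 to -0.10) for SAR131675 against control diet and -0.48 (-1.58 to 0.61) for LNR against sham, from 32 UMIs in all. Among all cells with a Cd3 UMI it did pass for LNR against sham, at 11.3 (6.17 to 18.9) against 28.7 (19.6 to 40.5) CPM from 14 and 32 UMIs, a log2 ratio of -1.34 (-2.36 to -0.40), beside 6.06% of genes. It did not reach 2-fold among cells with at least 3 Cd3 UMIs, at 23.8 against 42.3 CPM from 14 and 23 UMIs, or among T/NK-like cells with a Cd3 UMI, at 40.2 against 64.2 CPM from 11 and 14 UMIs. Tnfrsf11b in chondrocyte-like cells did not pass, beside 4.47% and 6.16% of genes, with log2 ratios of 0.36 (0.21 to 0.51) in the diet pair and 0.18 (-0.06 to 0.42) in the LNR pair. The diet value turned to -0.18 at the finer resolution, where the Angptl7 population was set apart. Tnfrsf11a in macrophage-like cells did not pass either, beside 2.77% and 2.44% of genes, and its ratios of -0.0026 (-0.15 to 0.14) and -0.10 (-0.35 to 0.14) had intervals that included 0. The LNR value turned to 0.41 (0.22 to 0.60) with classes set by markers.

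Among the named classes, the changes past 2-fold lay elsewhere, leaving aside the 22 UMIs of the single B cell-like cell of control diet. Tnfrsf11b in fibroblast-like cells passed in the diet pair, at 16.9 against 8.20 CPM, a log2 ratio of 1.05 (0.77 to 1.32), beside 2.74% of genes. In the LNR pair it was at 11.2 against 6.04 CPM, a log2 ratio of 0.89 (0.41 to 1.39) that did not pass, beside 1.66% of genes. When markers set the classes in place of clusters, the ratios were 0.079 (-0.036 to 0.19) in the diet pair and 0.25 (0.10 to 0.40) in the LNR pair. The 6 chondrocyte markers summed to 169 against 109 CPM in the fibroblast-like cells of the diet pair, with 1 having enough UMIs and 0 called, and the 12 osteoblast maturation genes to 2155 against 1936 CPM. Their part in the Tnfrsf11b difference was not tested. Tnfrsf11b also passed in basal keratinocyte-like cells of the diet pair, at 0.949 against 0.423 CPM, beside 3.1% of genes. Of the 12 osteoblast maturation genes, 8 had enough UMIs in these keratinocytes and 4 were also called higher in SAR131675, namely Alpl, Ibsp, Dmp1 and Spp1. The summed level of the list was 25.3 against 14.6 CPM, and its part in the Tnfrsf11b difference was not tested.

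Tnfsf11 passed in the hair and nail matrix-like cells of the diet pair, with 31 UMIs in 21 cells of SAR131675 and 2 in 2 cells of control diet, a log2 ratio of 2.34 (0.36 to 5.45), beside 4.36% of genes. These cells were 773 in SAR131675 and 306 in control diet. Tnfrsf11a passed in dermal papilla and nail mesenchyme-like cells, at 10.6 against 29.0 CPM, a log2 ratio of -1.46 (-2.20 to -0.72), beside 5.71% of genes.

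In clusters of mixed types, 5 differences passed the same rule, and they belong to no single cell type. Tnfsf11 passed in keratinocyte clusters of the diet pair, with 47 against 11 UMIs and a log2 ratio of 1.63 (0.66 to 2.72), beside 4.07% of genes. The osteoblast maturation genes summed to 23.4 against 12.0 CPM in these clusters, with Ibsp and Col1a1 called higher of 6 with enough UMIs and Mepe at 0 in both libraries. It passed in myeloid clusters, with 18 against 3 UMIs and a log2 ratio of 1.98 (0.21 to 4.39), beside 6.58% of genes, and 1 cell held 8 of the 18. The 56 against 2 UMIs of the stromal clusters, beside 3.48% of genes, came with the single cell of 46 UMIs. In these stromal clusters the osteoblast maturation genes summed to 8969 against 6680 CPM, with Sp7 called higher and Spp1 lower of 7 with enough UMIs. The chondrocyte marker Chad was called higher. In keratinocyte clusters of the LNR pair, Tnfsf11 had 3 against 26 UMIs and Tnfrsf11a 16 against 62, with log2 ratios of -2.62 (-4.98 to -0.91) and -1.45 (-2.35 to -0.64), beside 8.95% of genes. The sham cluster with few LNR cells described above is among them, and the osteoblast maturation genes there summed to 44.0 against 348 CPM, with 6 of 9 called lower. The part of these genes in the differences of either pair was not tested.

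The signal genes downstream of RANK, 16 genes of the TRAF, NF-kB and NFAT steps, were measured in full in macrophage-like cells, and 0 of 16 changed 2-fold in either pair, beside 2.77% and 2.44% of all genes, shares too low for a count of 0 to say anything of the list. Their median log2 ratio was -0.13 in the diet pair and -0.17 in the LNR pair, beside -0.03 and 0.01 over all genes. Nfatc1, the master transcription factor of osteoclasts, was at 77.4 and 84.5 CPM in the diet pair and at 60.0 and 59.9 CPM in the LNR pair. Of the costimulation genes, 4 of 6 had enough UMIs and 0 changed, and Csf1r, the receptor of M-CSF, was at 765 and 988 CPM and at 1389 and 1454 CPM. Of the 4 repressors of osteoclast formation, 0 changed in either pair. The same low background holds for both lists.

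The receptors through which hormones and cytokines act on stromal RANKL and OPG were present in osteoblast-like cells. Pth1r, the parathyroid hormone receptor, was at 249 and 299 CPM in the diet pair and at 196 and 227 CPM in the LNR pair. In chondrocyte-like cells it was at 55.2 to 68.0 CPM over the 4 libraries. Of the 12 receptors, 10 in the diet pair and 11 in the LNR pair had enough UMIs in osteoblast-like cells, and 0 changed 2-fold in either, beside 4.78% and 3.3% of all genes, so that the count is near the background. Of the genes for shedding and alternative binding of RANKL, Mmp14, a membrane protease that sheds it, was at 199 and 256 CPM and at 426 and 304 CPM in osteoblast-like cells. Adam19, another protease, was the one called member of that list there, 1 of the 7 with enough UMIs, beside 3.3% of all genes, at 21.4 CPM in LNR against 9.37 CPM in sham.

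Genes with the most similar profiles were ranked over 21 classes with at least 50 cells in each pair, by the lower Pearson r of both pairs among 19067 genes. Tnfsf11 was closest to Podnl1 (r = 0.80 and 0.98 in the diet and LNR pairs), Ddc (0.74 and 0.79), Nsg2 (0.67 and 0.66), Gm56716 (0.65 and 0.78) and Ptprv (0.67 and 0.65). Tnfrsf11b was closest to Omd (0.89 and 0.91), Asgr1 (0.87 and 0.87), Ecrg4 (0.89 and 0.87), Gm41724 (0.87 and 0.86) and Ptgis (0.89 and 0.85). Tnfrsf11a was closest to Sh3glb1 (0.70 and 0.71), Rnf44 (0.70 and 0.73), Sh3tc1 (0.73 and 0.69), Ehd4 (0.69 and 0.69) and Cbfa2t3 (0.66 and 0.69). Without the B cell-like class, whose diet Tnfsf11 UMIs came from 1 cell, 3 of the 5 genes named for Tnfsf11 were still among its closest 5, and Podnl1 had r = 0.93 and 0.98. Gm56716 fell to rank 51 (0.57 and 0.78) and Ptprv to rank 14 (0.86 and 0.64). For Tnfrsf11a 4 of 5 were still among the closest 5, and for Tnfrsf11b 3 of 5. This choice was made after the values had been seen. Classes of a pair share libraries and depth, so these values describe likeness and carry no test.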

How the data were processed

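Matrices of raw UMI counts, as deposited, came from Cell Ranger, in version 6.1.2 for the LNR pair and 8.0.1 for the diet pair per the file headers, whereas the submitters' notes name 6.1.2 and GRCm39 for all. These deposited counts are not normalized, whereas the study's methods describe data integration and batch correction in its own treatment of the LNR data. Cells with 200 to 5500 genes, at most 30000 UMIs and at most 10% mitochondrial UMIs were kept. Each pair was clustered by the Leiden method at resolution 2 (2000 variable genes, 30 components, 20 neighbors, counts scaled to 10000), immune clusters again, leaving out the members and their pathway genes. A cluster was named at a mean marker z of at least 0.8, with no other class family at 0.75 of it, at least 3 markers in at least 5% of cells, no other family with more markers among its 10 leading genes, and a marker among its 20 leading genes. That last number was raised to 50 for a time after members had been seen by cluster, and then set back. It gives the main values, and 50 is an alternative.

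The members and lists were chosen with earlier results of these data known. Named genes are the members in all classes, the 5 genes most alike to each, by log2(CPM + 1), and genes of the lists. Clusters, and genes that lead them or were singled out within them, were chosen after values were seen. Doublets were left in, and Scrublet called 1.01% to 8.12% of cells as an alternative, where 15.9% to 23.3% were expected from the cell numbers. Counts of 0 allow up to 3 UMIs or cells. Ratios and intervals were also run on simulated counts drawn independently of each other. This checks the calculation only, and says nothing of UMIs that share a cell, as they do in these data. The work was done in Python 3.11.15 with scanpy 1.11.5 and igraph 0.11.9 for clustering, scipy 1.17.1 for intervals, and pandas 2.3.3 and numpy 2.4.6 for sums.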

Additional observations from a re-analysis of the deposited data

How the results depend on the processing

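Of 280 values under alternatives, 226 stayed within the interval of the value given and 44 moved out of it. Another 10 turned in sign from a value whose interval excluded 0. Sign turns from values whose interval included 0 are counted among the 226 or the 44. A limit of 5% mitochondrial UMIs and removal of called doublets moved 0 of 28 values each. The calls fell short of the expected doublets in every library, so that the values say nothing of doublets not called. The osteoblast-like log2 ratio of Tnfsf11 to Tnfrsf11b was -2.17 in SAR131675 and -1.76 in control diet when cells of any size were kept. With classes set by markers it was -2.44, -2.18, -0.19 and -0.88 in SAR131675, control diet, LNR and sham. Thinned to 1500 UMIs it was 0.16, 0.18 and -0.39 in SAR131675, LNR and sham, and without the top cell 0.38 in SAR131675. The osteoblast-like share of Tnfsf11 in LNR was 82.4% at resolutions 1 and 3, 82.1% without upper limits, 69.7% by markers, 91.3% without the top cell, 81.2% thinned and 83.8% with all libraries clustered together. In SAR131675 it was 28.3% by markers and 27.7% without the top cell, and in sham 55.7% by markers. The T/NK-like share was 25.9% by markers, 31.9% thinned and 22.1% with 50 leading genes in SAR131675. In control diet it was 25.1% without upper limits, 39.5% without the top cell, 42.6% thinned and 39.6% with 50 leading genes. Thinned it was 10.6% in LNR and 13.0% in sham, and by markers 11.1% in sham. The chondrocyte-like share of Tnfrsf11b was 13.9% and 23.1% at resolution 3, 10.6% and 18.6% without upper limits, 25.4% and 31.8% by markers, and 14.3% and 23.1% with all libraries together in SAR131675 and control diet, and 31.7% thinned in control diet. In sham it was 19.6% at resolution 1, 27.1% by markers and 20.4% with all libraries together. Between the diet libraries, the log2 ratio of Tnfsf11 in osteoblast-like cells was 0.077 without upper limits and that of Tnfrsf11b -0.10 without the top cell. That of Tnfrsf11b in chondrocyte-like cells was -0.18 at resolution 3, -0.21 without upper limits, -0.23 by markers, -0.19 with all libraries together and 0.56 thinned. By markers, fibroblast-like Tnfrsf11b was at 0.079. Between LNR and sham by markers, osteoblast-like Tnfsf11 was at 1.13 and Tnfrsf11b at 0.44, fibroblast-like Tnfrsf11b at 0.25 and macrophage-like Tnfrsf11a at 0.41. The finer resolution and the missing limits moved the Angptl7 cells of the diet pair out of the chondrocyte-like class, and the cause of the other moves was not tested. The 50 leading genes and the limit of 5000 UMIs were chosen after seeing the data.

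No paired analysis was possible because each condition had 1 library and no result comes from a test. Low UMI numbers of Tnfsf11 limit every class, and least the osteoblast-like and, in the diet pair, the T/NK-like cells. Even these rested on few cells in SAR131675 and control diet. Cells with a Tnfsf11 UMI were 42 and 30 among osteoblast-like cells and 28 and 24 among T/NK-like cells.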
